A study of Mus musculus with 4 samples.

Results

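The Z-disc scaffold genes examined here were Actn2, Actn3, Ldb3, Myoz1, Myot, Tcap, Xirp2, Flnc, Des and Synpo2, chosen by name as structural genes of the Z-disc. All 10 were found among the 9838 genes of the table by their gene symbol, and they held 207 of its 42207 alternative start sites (ASSs). The data came from skeletal muscle, taken from the gastrocnemius of adult male C57BL/6 mice, with 2 libraries of homozygous AMPKα2 knockout mice (KO) and 2 of wild-type mice (WT). The knockout allele lacks part of the catalytic domain of AMPKα2, a subunit of the energy-sensing AMP-activated protein kinase. Each ASS is a cluster of the 5′ ends of sequenced cDNA, so reads show where transcripts, or pieces of transcripts, began, and the count of a site is the raw number of reads in a library.

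The Z-disc is the plate at each end of a sarcomere, where actin filaments of neighbouring sarcomeres overlap and are tied together by α-actinin. PDZ-LIM, calsarcin, myotilin and filamin proteins dock onto α-actinin, telethonin caps titin at the edge of the disc, and desmin filaments link discs of neighbouring myofibrils. The disc bears mechanical load and also anchors kinases, phosphatases and proteins of the chaperone and degradation systems.

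Depth was 1300069 to 2900279 reads per library, with more reads in each KO library than in either WT library. Summed reads of Prkaa2, the targeted gene, overlapped between the groups (149 and 183 normalized in KO, 153 and 186 in WT), while 2 of its 19 sites were without reads in KO and held 24 and 12 in WT, so the gene total is not a check of the genotype. All 10 listed genes that define skeletal muscle were present. Z-disc reads numbered 14167 and 14269 in KO, against 6333 and 10384 in WT. They made up 0.488% and 0.620% of all reads in KO and 0.487% and 0.662% in WT, so the libraries of one genotype lay further apart than the genotypes did. Counts below are normalized reads, that is, raw reads divided by the size factor of DESeq2 for each library. Groups are given as mean ± SD over 2 libraries. Size factors were estimated separately for gene sums and for sites (1.64 and 1.52 in KO replicate 1, 0.803 and 0.866 in WT replicate 2). Values of sites and of gene sums are therefore on different scales, and a site can exceed its gene. Counts are compared between libraries and not between genes, because transcript lengths were not used.

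The place in the gene where reads began differed among the scaffold genes. Sites whose summit lay within 100 bases of the annotated start of the gene held reads in 3 of the 10 genes, Actn3, Tcap and Myot. Of all 3063 genes with at least 100 reads and a RefSeq position, 83.9% had no read in that window. Actn3, the α-actinin of fast glycolytic fibres, had 72.0% of its 9774 reads in 1 site at its start (chr19:4877782-4877942, minus strand), with the summit 12 bases inside the gene. That site took 73.0% of the Actn3 reads in KO replicate 1 (95% Wilson interval 71.4 to 74.6), 71.9% in KO replicate 2 (70.2 to 73.5), 63.6% in WT replicate 1 (61.0 to 66.1) and 75.6% in WT replicate 2 (73.9 to 77.3). The groups overlapped, and the WT libraries were the extremes.

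Tcap, which encodes the titin cap telethonin, had reads in both parts of its short gene. The start site (chr11:98383764-98383829, plus strand, summit 9 bases inside the gene) and the larger downstream site (chr11:98384389-98384876) held 27.3% and 71.5% of its 2289 reads. The share within 100 bases of the start was 17.7% in KO replicate 1 (15.3 to 20.4), 38.1% in KO replicate 2 (35.0 to 41.4), 10.2% in WT replicate 1 (6.03 to 16.6) and 32.7% in WT replicate 2 (28.2 to 37.6). Replicate 2 was the higher library in both genotypes, and the spread within a genotype exceeded the difference between the means of 27.9% and 21.4%. Myot, which encodes the actin and filamin binding protein myotilin, had 25 of its 1887 reads at the start. Its main site held 57.6% of its reads, lay at 33.8% of the gene length and overlapped an exon and an intron.

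Ldb3, which encodes the PDZ-LIM protein ZASP or Cypher, had no site within 100 bases of the outer end of the gene, but its main site (chr14:34588417-34588711, minus strand, 64.3% of 2696 reads) spanned both starts that the RefSeq promoter table (GRCm38.p6) gives for the gene. The promoter of the upstream of these starts is printed here because the interval of the main site overlapped part of it. The summit of that site (chr14:34588480) lay downstream of the printed bases, and where reads began within the interval is not given. The promoters of Xirp2 and Des, which had no read near their starts, are printed beside it. The closing run of capitals marks the first 30 transcribed bases, and capitals before it mark a CArG box in Ldb3 and a MEF2 site in Xirp2.
Ldb3 chr14:34588652-34588931, minus strand: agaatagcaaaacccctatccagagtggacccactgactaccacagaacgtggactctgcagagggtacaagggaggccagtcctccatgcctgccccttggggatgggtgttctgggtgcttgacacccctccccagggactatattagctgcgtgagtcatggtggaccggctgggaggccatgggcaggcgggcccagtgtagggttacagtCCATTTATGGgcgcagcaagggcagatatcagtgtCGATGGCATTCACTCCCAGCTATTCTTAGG
Xirp2 chr2:67445752-67446031, plus strand: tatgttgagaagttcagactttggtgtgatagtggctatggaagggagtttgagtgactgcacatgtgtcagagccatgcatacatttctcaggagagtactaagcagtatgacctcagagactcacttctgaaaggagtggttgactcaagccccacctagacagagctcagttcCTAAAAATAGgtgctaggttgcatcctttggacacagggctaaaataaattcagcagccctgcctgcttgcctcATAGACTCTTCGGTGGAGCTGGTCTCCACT
Des chr1:75360042-75360321, plus strand: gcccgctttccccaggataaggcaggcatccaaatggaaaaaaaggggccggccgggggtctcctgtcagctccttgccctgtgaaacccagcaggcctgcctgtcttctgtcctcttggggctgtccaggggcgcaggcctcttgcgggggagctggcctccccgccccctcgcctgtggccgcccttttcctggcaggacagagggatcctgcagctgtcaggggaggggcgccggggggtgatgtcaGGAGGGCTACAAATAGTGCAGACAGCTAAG
Both strands were searched over the 250 bases before and 30 after each start, and 6 of the 10 genes had an entry. The CArG box, the letters bound by serum response factor, began 35 bases before the Ldb3 start and was present in 1.56% of 32851 promoters in the table. The MEF2 site, the letters bound by MEF2 factors, began 74 bases before the Xirp2 start and 236 bases before the Synpo2 start and was present in 1.77% of them. E-boxes (CANNTG) occurred in 70.1% of promoters, among them those of Actn2, Xirp2, Des and Synpo2, with the Des matches beginning 220 and 36 bases upstream. TATAAA was found in 13.1% of promoters and in that of Synpo2. There it began 233 bases upstream on the opposite strand, within the letters of the MEF2 site. CATTCC, the core of the M-CAT element, was found in 13.9% and in that of Flnc. A match describes letters and not a bound site.

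The remaining genes were read mainly from far inside. Des, which encodes the intermediate filament protein desmin, had 94.9% of its 7386 reads in 1 site at 87.1% of the gene length (chr1:75367215-75367621), with 91.9% to 96.6% in the 4 libraries. Myoz1, which encodes the calcineurin binding protein calsarcin of fast fibres, had 58.5% of its reads in a site at 95.4% of the gene (chr14:20649266-20649460). Flnc, which encodes the muscle filamin, had 58.2% in a site at 78.9% of the gene (chr6:29455760-29455854). Synpo2, which encodes the actin bundling protein myopodin, had 60.7% in a site at 76.3% of the gene (chr3:123114200-123114548). Actn2, the α-actinin expressed in all striated fibres, was spread over 18 sites, and its main site (chr13:12294366-12294419) held 20.3% of 664 reads. Xirp2, which encodes an actin binding Xin repeat protein, had 67 sites, 53 of them contained in an annotated transcript, and its main site (chr2:67516231-67516944) held 22.1% of 16765 reads at 87.5% of the gene length.

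**Figure D1:**
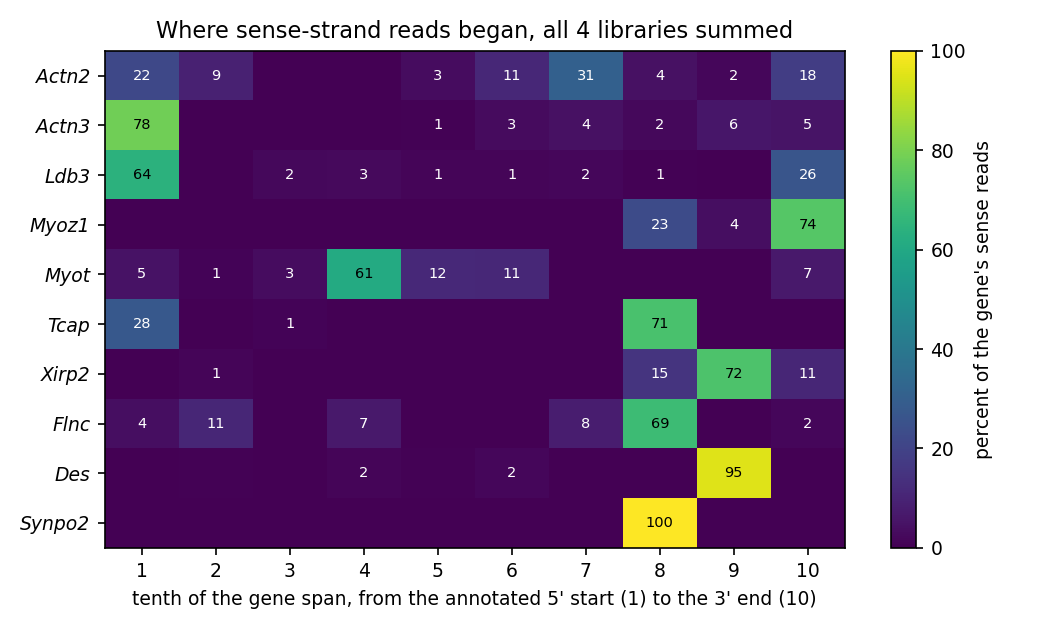
Share of the sense-strand reads of each gene by position along the gene span in 10 equal bins, with the libraries summed; the x axis runs from the annotated 5′ start to the 3′ end and the colour gives percent. Actn3 and Ldb3 have most reads in the opening bin, while Des, Synpo2, Myoz1, Xirp2, Tcap and Flnc have most reads in the closing 3 bins.

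The class codes of the authors place a site relative to annotated transcripts. Of the 207 Z-disc sites, 101 were contained in a transcript (c), 58 were intronic (i), 28 overlapped an exon and an intron (e), 8 had another exonic overlap (o), 6 lay just outside the gene (p) and 6 were antisense to an exon (x). Intronic sites were 28.0% of the Z-disc sites and 52.0% of all 40426 sites with a gene, and sites of code e were 13.5% and 3.20%. Reads in intronic sites made up 4.35% and 4.01% of the Z-disc reads in KO and 3.51% and 3.38% in WT. The median over the 10 genes was 4.19% of reads, against 32.5% over the 3063 genes. Actn2 and Myot stood highest among the 10. In Actn2 the intronic share was 46.6% and 40.1% in KO against 47.2% and 66.9% in WT. In Myot it was 19.4% ± 2.22 in KO and 34.9% ± 11.4 in WT, where 1 intronic site with 93 reads in WT replicate 1, and none in the other libraries, held most of the intronic reads of that library. No test of these shares was made.

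**Figure D2:**
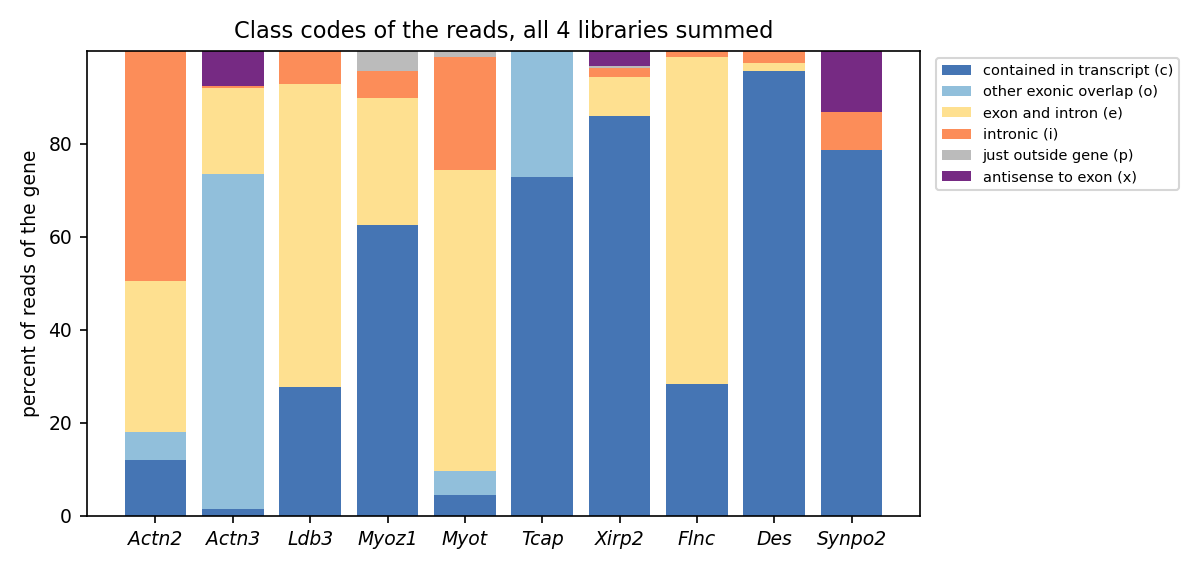
Percent of the reads of each gene by class code, with the libraries summed; bars begin at 0 and add up to the whole of a gene. Actn2 has the largest intronic part (49.5%), and antisense reads appear in Actn3 (7.68%), Xirp2 (3.38%) and Synpo2 (13.2%).

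The question of the genotype comparison was whether the level of a gene, summed over its sites, differed between KO and WT. All 10 Z-disc genes were tested by DESeq2 and none was up- or down-regulated at an adjusted p under 0.1, where 2.67% of 4688 genes were called, 1.71% higher and 0.96% lower in KO. None had an unadjusted p under 0.05 by DESeq2 or by edgeR, where 9.77% of the genes tested by DESeq2 did, and edgeR also called 0 at an adjusted p under 0.1, where it called 0.883% of 6115 genes. The log2 fold change was above 0 in 5 of 10 genes (50.5% of all genes), with a median of -0.02 over the 10 and 0.01 over all genes. Each library came from 1 mouse, so these p-values rest on the spread between 2 mice per group. In tissue RNA, fewer fibres of a type and less RNA per fibre cannot be told apart.

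**Figure D3:**
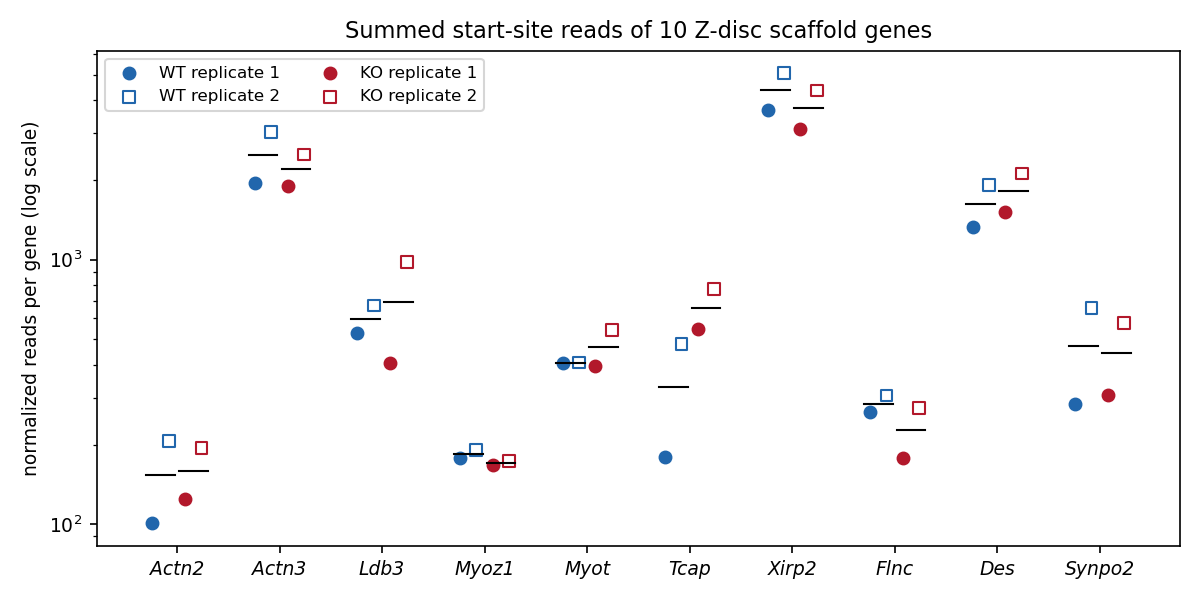
Normalized reads per gene on a log scale for each library; circles are replicate 1, squares are replicate 2, and lines are group means. Replicate 2 lies above replicate 1 for every gene in both genotypes, only narrowly for Myot in WT and Myoz1 in KO. The groups overlap for 8 of 10 genes.

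Tcap was the gene with the lowest p. Its normalized reads were 545 and 772 in KO against 179 and 480 in WT, or 659 ± 161 and 330 ± 212. Both KO libraries lay above both WT libraries, as in 22% of all genes tested. The log2 fold change was 1.00 (SE 0.53, 95% interval -0.04 to 2.03, DESeq2 adjusted p = 0.550). Both of its main sites had KO means above WT means, with log2 fold changes of 1.26 (SE 0.90) at the start site and 1.06 (SE 0.61) at the downstream site. WT replicate 1, the lowest library, decided much of the size, since the log2 fold change was 0.46 without it. Without WT replicate 2 it was 1.85, and Tcap then passed the threshold. In that fit WT was 1 library, the lowest, and the spread came from the KO libraries alone, so that the lone library was assumed to vary like them.

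The α-actinins did not differ detectably. Actn3 had 1894 and 2493 normalized reads in KO against 1939 and 3036 in WT, and the groups overlapped. Its log2 fold change was -0.18 (SE 0.42, 95% interval -1.01 to 0.65, adjusted p = 0.988). Actn2 had 125 and 194 in KO against 101 and 207 in WT, a log2 fold change of 0.05 (95% interval -1.06 to 1.16, adjusted p = 0.992). The 2 genes are close paralogs, and reads shared between them could have been split in counting.

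Among proteins that dock onto α-actinin, Ldb3 had 406 and 976 normalized reads in KO against 526 and 671 in WT. Both WT libraries lay between the KO libraries, and the log2 fold change was 0.21 (95% interval -0.78 to 1.19, adjusted p = 0.988). Myot had 395 and 543 in KO against 408 and 409 in WT, so that the WT libraries almost coincided within the range of KO. Myoz1 had 168 and 174 in KO against 178 and 191 in WT. Its KO libraries lay just below both WT libraries, as in 19.4% of all genes, and the log2 fold change was -0.11 (95% interval -1.06 to 0.85, adjusted p = 0.992).

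Flnc had 178 and 275 normalized reads in KO against 265 and 306 in WT, a log2 fold change of -0.33 (95% interval -1.28 to 0.61, adjusted p = 0.951). Xirp2 had 3121 and 4351 in KO against 3666 and 5059 in WT, a log2 fold change of -0.22 (95% interval -1.03 to 0.59, adjusted p = 0.973). For both genes the KO mean was lower while the libraries overlapped. Synpo2 had 308 and 577 in KO against 285 and 658 in WT, and its genotype means of 443 ± 190 and 471 ± 264 were close beside the spread. Des had 1513 and 2114 in KO against 1334 and 1917 in WT, a log2 fold change of 0.16 (95% interval -0.67 to 0.99, adjusted p = 0.992). For all 10 genes the 95% interval of the log2 fold change reached beyond 0.5 on at least one side, so modest differences were not detectable with these libraries.

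Most of the 10 genes moved together between libraries of the same genotype. With the size factors of gene sums, replicate 2 was above replicate 1 in both genotypes for 10 of 10 Z-disc genes. The same held for 29.3% of the 4688 genes tested. Myot in WT (408.1 and 408.5) and Myoz1 in KO (168 and 174) were near ties, and their order reversed with the size factors of sites. Summed reads of fast fibre genes moved likewise (35055 and 46421 in KO, 32977 and 54082 in WT), as did those of the skeletal muscle list (20416 and 23813 in KO, 18618 and 28864 in WT). Most genes of the skeletal muscle list are also in the fast fibre list, so these sums share reads and are not separate observations. Slow fibre genes had 1283 and 1769 in KO against 599 and 1401 in WT, with 11 of 12 genes in the table and Myl2 not among them. The signs of the small differences followed single libraries. Without KO replicate 2 only Tcap of the 10 had a log2 fold change above 0, and without KO replicate 1 there were 8 of 10.

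**Figure D4:**
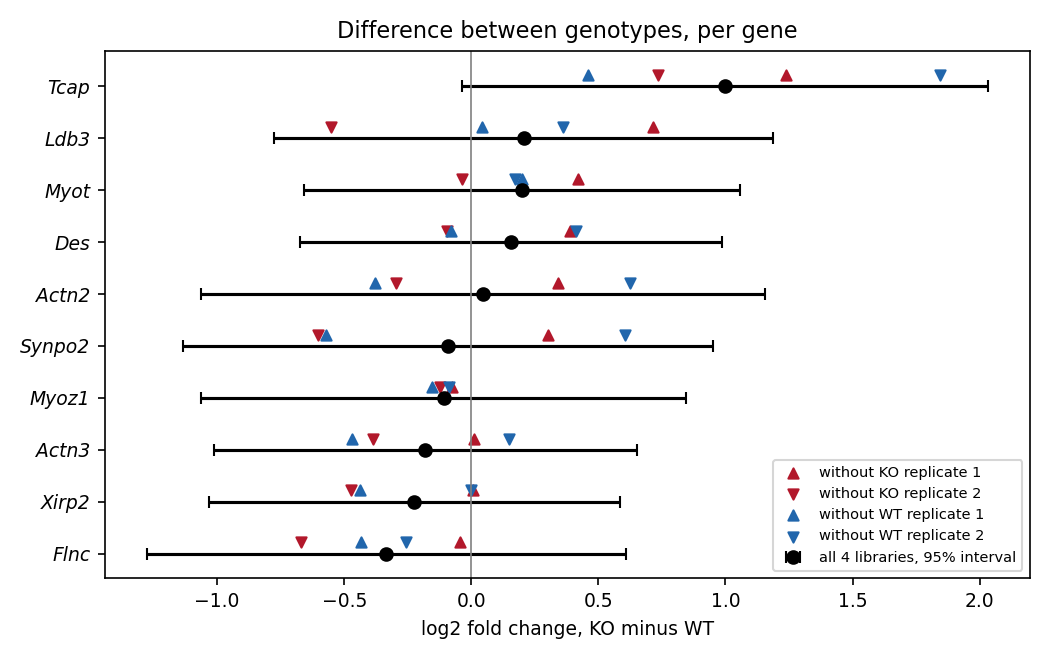
Log2 fold change of each gene (KO minus WT) with its 95% interval from the DESeq2 fit of all libraries, and triangles for the fits that leave out 1 library. All 10 intervals include 0, and triangles lie on both sides of 0 for 7 genes.

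Single sites were then compared. Of the 207 Z-disc sites, 90 were tested. DESeq2 called 1 site higher in KO and 0 lower, where 2.33% and 0.882% of all 11112 sites tested were called (3.21% in either direction), and edgeR called 0 of 90 (0.427% and 0.285% of 11242 sites over the table). An unadjusted p under 0.05 was seen at 6 sites by DESeq2 (9.63% of all sites tested) and 4 by edgeR. KO libraries were both above the WT libraries at 14 of the 90 sites and both below at 13, against 23% and 17.4% of all sites tested.

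The called site was antisense to an exon of Xirp2, on the minus strand at chr2:67514165-67514235. It had 111 and 333 raw reads in KO against 24 and 15 in WT, or 72.8 and 287 normalized reads against 32.6 and 17.3. The groups did not overlap, and KO replicate 2 was far above the other libraries. The log2 fold change was 2.86 (SE 0.84, DESeq2 adjusted p = 0.0392), and edgeR gave an adjusted p of 0.199. The call was lost without KO replicate 2, without WT replicate 2 and with independent filtering off. The site lies within the span of the long non-coding RNA gene Gm13601 (chr2:67490648-67516715), whose strand is not given in the gene table used, and reads of that gene and antisense reads of Xirp2 cannot be told apart. The other antisense sites of Xirp2 numbered 3, and the 4 together had 82.0 and 323 normalized reads in KO against 38.0 and 46.2 in WT. The sense sites of Xirp2 had 3271 and 3974 in KO against 3509 and 4646 in WT. Of all 263 antisense sites tested, 3.04% were called higher in KO.

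Synpo2 had 1 antisense site (chr3:123114163-123114168, plus strand), which lay just beyond one edge of its main sense site. It had 82 and 129 raw reads in KO against 15 and 24 in WT, and the groups did not overlap. Its log2 fold change was 1.78 (SE 0.85), with an adjusted p of 0.441 by DESeq2, so it was not called. It made up 16.2% (95% Wilson interval 13.3 to 19.7) and 19.5% (16.7 to 22.7) of Synpo2 reads in KO, and 7.39% (4.53 to 11.8) and 4.55% (3.07 to 6.67) in WT. Actn3 also had 1 site antisense to an exon (chr19:4861219-4861225, plus strand), near the 3′ end of the gene and 301 bases from Ctsf. Its normalized reads of 132 and 229 in KO against 256 and 111 in WT overlapped widely, with a log2 fold change of -0.03 (SE 0.69). A smaller plus-strand site of Actn3 (chr19:4869479-4869480), coded as intronic and therefore not counted as antisense here, had 21 and 14 raw reads in KO against 2 and 0 in WT, without overlap. An intronic site of Myot was the other opposite-strand site outside code x, with 9 and 8 raw reads in KO against 5 and 8 in WT. No strand setting of the counting was stated for these libraries.

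**Figure D5:**
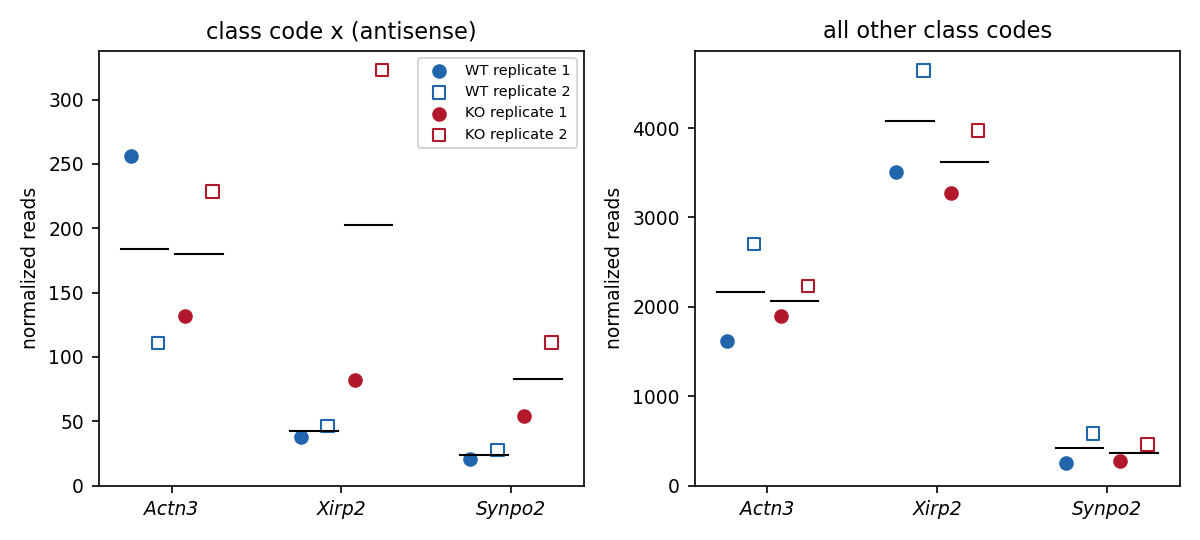
Normalized reads of antisense sites (left) and all other sites (right) of the 3 genes that had both, per library from 0, with lines for group means. Antisense reads of Xirp2 and Synpo2 are higher in both KO libraries than in both WT libraries, those of Actn3 overlap, and the reads of other codes overlap in all 3 genes.

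Among the sense sites, an intronic site of Xirp2 (chr2:67457414-67457416), its first site from the 5′ end, had 65.6 and 75.9 normalized reads in KO and 19.0 and 24.3 in WT. Its log2 fold change was 1.71 (SE 0.85, adjusted p = 0.492). A site of Xirp2 that overlapped an exon and an intron (chr2:67507889-67508121) went the other way, with 241 and 217 in KO against 394 and 561 in WT. The groups did not overlap, and its log2 fold change was -1.06 (SE 0.58, adjusted p = 0.614). The second largest site of Ldb3 (chr14:34529364-34529383), near the 3′ end, had 70.9 and 267 in KO against 65.1 and 41.6 in WT, a log2 fold change of 1.66 (SE 0.80, adjusted p = 0.446), and the size rested on KO replicate 2. The main start site of Ldb3 had 235 and 606 in KO against 372 and 461 in WT, and the main site of Myot had 263 and 356 in KO against 152 and 187 in WT (log2 fold change 0.87, SE 0.61, adjusted p = 0.845). The start site of Actn3 had 1486 and 1769 in KO against 1193 and 2129 in WT, and the main site of Des had 1571 and 1918 against 1242 and 1710. Neither moved beyond its spread.

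Site usage within genes was tested by the Simes method in edgeR. All 10 genes were tested and 0 were called at an adjusted p under 0.1, where 1.77% of 2145 genes were. The lowest p was that of Xirp2 (edgeR adjusted p = 0.222), which was the 1 gene of the 10 with an unadjusted p under 0.05, against 194 over all genes. Its antisense site made up 2.27% and 6.97% of the Xirp2 reads tested in KO and 0.945% and 0.380% in WT. The main site of Ldb3 took 53.8% and 62.8% of Ldb3 reads in KO against 73.1% and 74.0% in WT, and the groups did not overlap, but the change of usage was not called (adjusted p of 1.00 for the gene by edgeR). The main site of Synpo2 also had a lower share in KO, with 46.7% and 59.5% in KO against 67.0% and 73.1% in WT. That of Myoz1 likewise had 52.0% and 56.8% in KO against 67.7% and 64.7% in WT. Myot and Flnc went the other way without overlap at their main sites. In Myot the share was 61.8% and 66.5% of all its reads in KO against 38.5% and 49.4% in WT. In WT replicate 1, 93 of the 291 Myot reads lay in 1 intronic site that was not tested. Among the Myot reads tested, the shares lay closer, at 72.3% and 77.3% in KO against 63.6% and 66.1% in WT. In Flnc the share was 64.1% ± 5.76 of all reads in KO against 50.5% ± 4.16 in WT. How often main-site shares separated the groups over all genes was not counted. No change of usage was called in these genes.

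Other proteins of the Z-disc and its load-bearing and turnover machinery were taken as a list of 50 gene symbols, of which 46 were in the table and 36 were tested. None was called higher and 1 lower in KO, where 1.71% and 0.96% of all genes tested were. The log2 fold change was above 0 in 20 of 36, against 50.5% of all genes, and the median was 0.06, against 0.01. The lower gene was Trim63, which encodes the muscle ubiquitin ligase MuRF1. It had 29.3 and 38.4 normalized reads in KO against 101 and 169 in WT, and the groups did not overlap. Its log2 fold change was -2.00 (SE 0.62, DESeq2 adjusted p = 0.0620), while edgeR gave an adjusted p of 0.166. The call was lost on leaving out any 1 library. Pdlim5, which encodes an enigma family PDZ-LIM protein, had 1338 and 1051 in KO against 586 and 787 in WT, a log2 fold change of 0.80 (SE 0.42) with an adjusted p of 0.545 by DESeq2. Its KO libraries lay above the WT libraries without passing the threshold.

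Markers of other cells moved with genotype in part. Summed reads of 10 fibroblast genes were 3787 and 4074 in KO against 5337 and 5281 in WT. In both KO libraries, 5 of the 10 lay below both WT libraries (19.4% of all genes tested) and 0 above (22%). Blood and macrophage genes numbered 6, with summed reads of 115 and 135 in KO against 321 and 191 in WT. Of these, 3 lay below both WT libraries in KO and 1 above. Summed reads of 9 endothelial genes were higher in both KO libraries (500 and 431) than in both WT libraries (419 and 379), with a median log2 fold change of 0.34. Single endothelial genes were split, with 1 above both WT libraries in KO and 2 below. Smooth muscle also expresses Des, Flnc and Synpo2, and its marker list includes Des and Synpo2 themselves. The summed reads of its listed genes overlapped at 1961 and 2977 in KO against 1803 and 2782 in WT. Of that list 8 of 10 genes were in the table, with Cnn1 and Lmod1 not among them. Des alone had 1513 and 2114 in KO and 1334 and 1917 in WT, most of each sum. The sum therefore says little about smooth muscle apart from the Z-disc genes. Adipocyte genes, with 7 of 9 in the table, had summed reads of 6445 and 3602 in KO against 6413 and 4247 in WT. The groups overlapped, and replicate 1 was above replicate 2 in both genotypes, opposite to the order in the Z-disc genes. No gene of these lists was called. Their part in the values of the Z-disc genes was not tested.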

How the data were processed

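WTSS-seq libraries, made from RNA depleted of ribosomal RNA with template switching and semirandom primers, amplified by PCR and sequenced from the 5′ end, were available for 2 KO and 2 WT samples, grouped by their labels. The authors deposited raw read counts per clustered start site with a gene symbol and class code (build GRCm38.p5). Their mapping and clustering were described for sister libraries of 3′ ends, and whether the same settings were used here was not stated. No columns of per-sample values were left unused. No molecular identifiers were described, so intervals and the floor of 3 reads cover counting error only.

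Sites, and counts summed per gene symbol over all class codes, were compared by DESeq2 1.42.0 in R 4.3.3 (Wald test), with default size factors and independent filtering, at a Benjamini-Hochberg adjusted p under 0.1 over all features tested. As an alternative, edgeR 4.0.16 was run (quasi-likelihood test), and its diffSpliceDGE served for site usage. Filtering kept genes and sites with a mean above 16.5 and 8.76 normalized reads. Scripts were tested on simulated data. Positions and promoters came from RefSeq (GRCm38.p6), which held all 10 genes and the promoters of 6. Within each gene the site with most reads, the site nearest the start, called sites and the 3 largest sites could be named, and of the Z-disc partners the called genes and the 3 with the smallest p. One item that this rule names is not reported here. The remaining sites named were chosen after their values were seen. They were the opposite-strand intronic sites of Myot and Actn3, and the site of Xirp2 that overlapped an exon and an intron. The genes, lists and tests were chosen with earlier results of these data known. Alternatives covered normalization, filters, thresholds, class codes, the site with most reads, and leaving out each library.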

Additional observations from a re-analysis of the deposited data

How the results depend on the processing

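Fits that left out 1 library took the spread from the other group alone, and the lone library was assumed to vary like that group. The count of Z-disc sites higher in KO fell from 1 to 0 with edgeR, with independent filtering off and with the replicate block, and ranged from 0 to 1 on leaving out each library; without WT replicate 2 the called site was the start site of Tcap in place of the antisense site of Xirp2. The count of sites lower in KO and that of genes higher in KO both ranged from 0 to 1, with an intronic site of Myot that held 93 reads in WT replicate 1 alone and Tcap called without WT replicate 2, where the log2 fold change of Tcap was 1.85. Trim63 was the 1 partner called lower in KO, and the count was 0 with edgeR, with independent filtering off, at an adjusted p under 0.05, with the replicate block and on leaving out any library. Genes with changed usage numbered 1 (Myot) with a minimum of 10 reads in place of filterByExpr, and 0 to 1 on leaving out each library. The median log2 fold change of the 10 genes, -0.02, ranged from -0.34 to 0.32 on leaving out each library and was above 0 without KO replicate 1 (0.32), without WT replicate 2 (0.27), with codes c, o and = only (0.21) and without the site with most reads (0.16). Signs reversed for Actn3 with codes c, o and = only (0.11), and without the site with most reads for Myoz1 (0.29), Myot (-0.50) and Synpo2 (0.53). On leaving out each library the log2 fold change ranged from -0.38 to 0.63 for Actn2, -0.47 to 0.15 for Actn3, -0.55 to 0.71 for Ldb3, -0.037 to 0.42 for Myot, -0.47 to 0.0052 for Xirp2, -0.094 to 0.41 for Des and -0.60 to 0.61 for Synpo2. The cause of these shifts was not tested. The share of intronic reads, with a mean over libraries of 3.81%, was 10.3% with equal weight per gene and 28.0% as a share of sites; the share near the start was 9.72% with equal weight and 20.7% counting every start of the promoter table, an alternative added after seeing the data. Same-numbered samples deviated together only weakly (r = 0.0703 over 10728 sites), so the numbers were not taken as pairs. All 10 Z-disc genes shared the order of the replicates with the size factors of gene sums, Myot and Myoz1 only narrowly. With the replicate block the median log2 fold change of the 10 genes was also above 0, at 0.02. A site needed more than 8.76 normalized reads on average to be tested, and 90 of the 207 Z-disc sites were tested.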
